A study of Drosophila melanogaster with 42 samples.

Results

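The last age step of the series ran from day 70 to day 80 and was measured on 12 of its 42 arrays, chosen by the age and genotype in the array titles. There were 3 arrays in each of 4 groups of adult male Drosophila melanogaster, sampled as head and thorax: Indy206/CS heterozygotes at day 70 and at day 80, and the genetically matched control heterozygotes 2216/CS at day 70 and at day 80. Indy206 is an allele of Indy (I'm Not Dead Yet), the gene of a plasma membrane citrate transporter whose reduced activity is known to lengthen fly life. Each replicate was 15 males, whose total RNA was amplified in a T7 reaction. Each array set this RNA, labelled with Cy5, against a Cy3 reference pooled from control RNA of all ages, and no dye swap is listed. Values are log2 ratios, read as sample over reference, a direction and a base that the sources used here do not state and that are likely from the convention for these dyes. The question was how transcript levels differed between day 80 and day 70, with genotype as a block and in each genotype by itself.

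By these ages a fly cohort has lost many of the flies it started with, so the sampled males are survivors. Old flies are known for a rising expression of antimicrobial peptides, for lower transcripts of the mitochondrial respiratory chain, and for a loss of muscle and sensory function. The respiratory chain passes electrons through complexes I to IV and its proton gradient drives the ATP synthase. The proteasome, a barrel of alpha and beta subunits with a regulatory cap, degrades tagged proteins.

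The 20000 spots gave 19077 units, of which 9905 are single genes and 9172 are spots without a single paired gene. The 12 array medians lay between -0.014 and -0.0020, and the interquartile range of spot values between 0.185 and 0.381. The arrays of control day 70 replicate 3 and control day 80 replicate 2 had the narrowest ranges, 0.193 and 0.185, and the first of these carries the replicate number 1 in its description. Pairs of the 12 arrays correlated across spots at 0.80 to 0.96. The small number of arrays limits the precision, and p-values measure the spread between these sets of flies. As a check of the labels, the Indy transcript stood at -1.34, -1.31 and -1.52 in Indy206 at day 70 and at -0.90, -1.12 and -1.47 at day 80. In controls it was -0.17, -0.21 and -0.37 at day 70 and -0.35, -0.32 and -0.40 at day 80. Every Indy206 array lay below every control array at both ages.

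With both genotypes together, no transcript passed the test between day 70 and day 80. limma with Benjamini-Hochberg adjustment called 0 of 19077 units (0%), and 1039 units had an unadjusted p under 0.05 (5.45%), 581 higher (3.05%) and 458 lower (2.4%) at day 80. The smallest adjusted p was 0.158. Without Indy206 day 70 replicate 2 the count was 3, and with the level of abdominal markers as a covariate it was 1. The 95% intervals give the sizes that these arrays leave possible. The median interval reached 0.190 to either side of the estimate, 18425 units (96.58%) had an interval wholly within a log2 difference of 1 in either direction, and 16336 (85.63%) had one within 0.5. The estimates themselves ran from -0.99 to 1.41, with a median of 0.0093. In the plot of differences against p, Rab19 stands above all other genes.

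**Figure D1:**
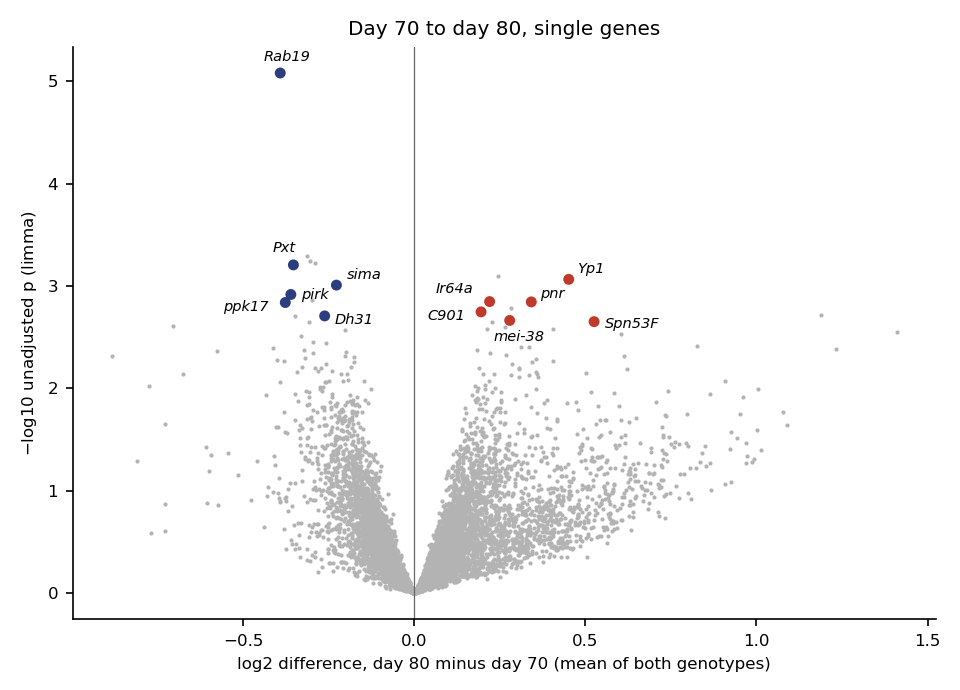
Log2 difference of day 80 minus day 70, as the mean of both genotypes (x axis), against the negative log10 of limma's unadjusted p (y axis), 1 point for each of 9905 single genes. The 6 named genes of smallest p on each side, among those with the same sign of change in both genotypes, are coloured and labelled. Genes known only by a number are not labelled, and no gene passed the adjusted test. More points lie far to the right than far to the left.

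The larger differences were mostly upward and mostly in transcripts far below the reference. A difference over 0.5 in size was estimated for 309 units on the higher side and 26 on the lower side. Of the 309, 262 averaged under -1 on the 12 arrays, a level that 1348 units had in all. This split turned with the scaling: it was 41 higher and 57 lower with quantile normalization, 76 and 49 with arrays scaled to a common spread, and 80 and 47 with the level of abdominal markers as a covariate. Without control day 80 replicate 2 it was 121 and 48. Markers of the testis, an organ of the abdomen that the dissection leaves out, had array medians of -1.66 to -0.92 in Indy206 at day 70 and -1.43 to -0.75 at day 80. In controls the testis medians were -1.29 to -0.57 at day 70 and -1.08 to -0.35 at day 80. The testis list had 8 of 9 genes above 0, with a median difference of 0.19, which was 0.052 with quantile normalization, 0.0082 with a common spread and 0.039 with the covariate. Leaving out each array in turn gave 0.077, without Indy206 day 80 replicate 2, to 0.30, and the part of these markers in the upward differences was not tested. In bulk samples such as these, fewer cells of a type and less RNA per cell cannot be told apart.

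The neighbouring age steps held more calls in the same fit. From day 50 to day 70, a step of 20 days, 230 units were called (1.21%), 99 higher (0.519%) and 131 lower (0.687%), with the same median standard error of 0.0930 as the step from day 70 to 80. Over 10-day steps the counts were 252 (1.32%) from day 10 to 20, 1192 (6.25%) from day 20 to 30, 1 (0.00524%) from day 30 to 40 and 55 (0.288%) from day 40 to 50. From day 5 to 10 there were 700 (3.67%). The median standard errors of these steps were 0.0986 to 0.114. With quantile normalization the step from day 50 to 70 had 114 calls and the step from day 20 to 30 had 466. The steps share arrays at their common ages, and their counts were not tested against each other.

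The genes given here were picked among single genes with a symbol and the same sign of change in both genotypes. Those of smallest p on the higher side come first, as measured values, since none was called. Yp1 encodes a yolk protein, made mainly by females. Its log2 ratios in Indy206 were -0.58, -0.55 and -1.06 at day 70 and -0.12, 0.22 and -0.09 at day 80, and in controls -0.48, -0.08 and 0.03 at day 70 and 0.09, 0.01 and -0.12 at day 80. The Indy206 groups did not overlap and the control groups did. The difference was 0.45 ± 0.12 (SE), 1.37-fold, with an interval from 0.20 to 0.70 (limma adjusted p = 0.875). The other yolk protein genes stood at 0.12 ± 0.099 (SE) for Yp2 and -0.019 ± 0.079 (SE) for Yp3, whose sign turned with the scaling.

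Spn53F, a serpin gene, was one of the genes whose groups did not overlap in either genotype. It went from -0.47, -0.37 and -1.11 to 0.07, -0.15 and -0.21 in Indy206, and from -0.72, -0.47 and -0.61 to -0.08, -0.15 and -0.07 in controls. C901 had the same order at smaller size, from -0.11, -0.06 and -0.16 to 0.07, 0.18 and -0.04 in Indy206 and from -0.07, -0.11 and -0.09 to 0.12, 0.14 and 0.09 in controls. Over both genotypes the differences were 0.53 ± 0.16 (SE) for Spn53F and 0.20 ± 0.057 (SE) for C901 (limma adjusted p = 0.875 for both). Across all units, 50 (0.262%) were higher at day 80 without overlap in both genotypes and 52 (0.273%) were lower, while 145 (0.76%) had no overlap and opposite directions.

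The remaining genes of this side are regulators and a receptor. Ir64a, an ionotropic receptor of the antenna that senses acid, stood at -0.09, -0.14 and -0.18 in Indy206 at day 70 and at 0.05, 0.18 and 0.03 at day 80, without overlap. Its control arrays overlapped, at -0.06, -0.16 and 0.05 and then 0.24, 0.23 and 0.01, and the difference was 0.22 ± 0.062 (SE). The GATA transcription factor gene pnr (pannier) differed by 0.34 ± 0.097 (SE), with overlap in both genotypes. For mei-38, a gene of the meiotic spindle, the difference was 0.28 ± 0.083 (SE), 0.14 in Indy206 and 0.42 in controls, where the groups did not overlap.

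On the lower side Rab19, a gene of the Rab family of small GTPases for membrane traffic, had the smallest p. Its log2 ratios in controls were 0.37, 0.19 and 0.34 at day 70 and -0.51, -0.25 and -0.32 at day 80. In Indy206 they were -0.13, -0.18 and 0.14 at day 70 and -0.25, -0.15 and -0.15 at day 80. The control groups lay far apart and the Indy206 groups overlapped. Over both genotypes the difference was -0.39 ± 0.072 (SE), 0.762 of the day 70 level (limma adjusted p = 0.158).

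Pxt, a peroxidase with similarity to cyclooxygenases, stood at -0.02, 0.23 and 0.43 in Indy206 at day 70 and -0.05, -0.24 and 0.01 at day 80, which overlap. In controls it stood at 0.63, 0.33 and 0.16 and then at -0.16, 0.00 and 0.08, which do not. Its difference was -0.35 ± 0.092 (SE) over both genotypes. sima, the fly homologue of the hypoxia-inducible factor alpha subunit, differed by -0.23 ± 0.062 (SE), from -0.03, 0.30 and 0.16 to -0.08, -0.36 and -0.10 in Indy206 without overlap.

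The remaining genes of the lower side act in immunity and signalling. pirk encodes a brake on the Imd immune pathway. Its control arrays went from 0.72, 1.01 and 0.54 to 0.28, 0.24 and 0.02 without overlap, its Indy206 arrays from 0.33, 0.50 and 0.64 to 0.16, 0.51 and 0.39 with overlap, and the difference was -0.36 ± 0.10 (SE). ppk17, of the family of degenerin and epithelial sodium channels, differed by -0.38 ± 0.11 (SE), with a separation in Indy206, where it went from 0.01, 0.21 and 0.31 to -0.84, -0.34 and -0.23. Dh31, a neuropeptide gene known for diuresis and for a role in sleep, differed by -0.26 ± 0.077 (SE), again with a separation in Indy206 alone. All 5 had an adjusted p of 0.875 by limma.

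**Figure D2:**
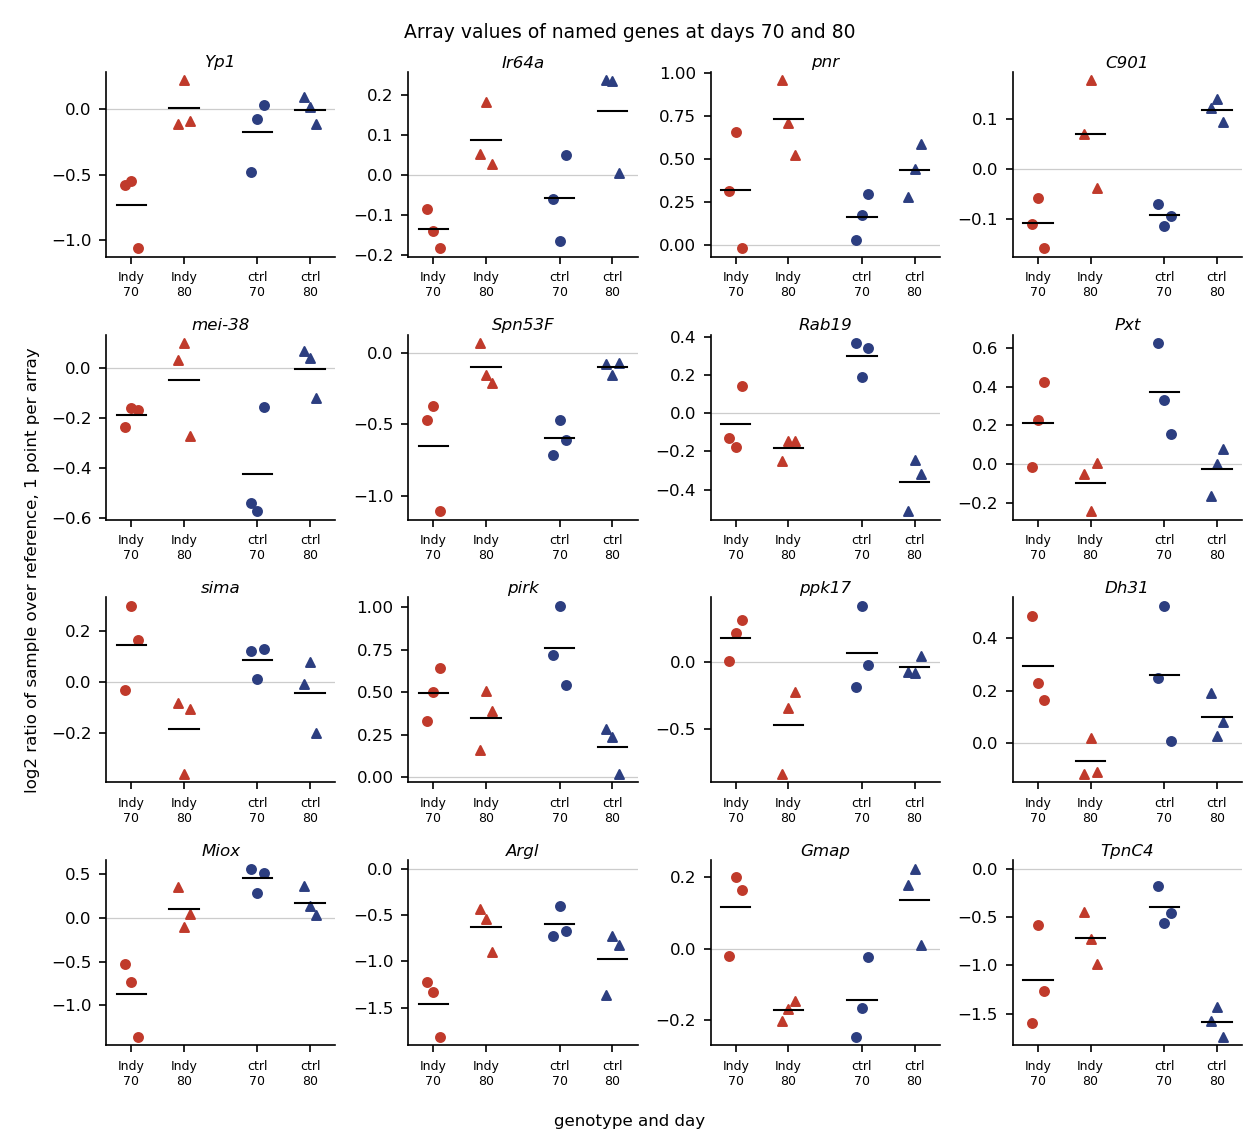
Log2 ratio of sample over reference on each of the 12 arrays (y axis) by genotype and day (x axis) for 16 named genes, with circles for day 70, triangles for day 80, red for Indy206, blue for controls and a bar at the group mean. Spn53F and C901 separate the days in both genotypes, Rab19 and TpnC4 in controls only, Miox and Argl in Indy206 only, and Gmap in opposite directions.

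Taken in each genotype by itself, the step gave 1 called unit. In controls limma called 1 of 19077 units (0.00524%), Rab19, which fell by 0.66 ± 0.10 (SE) on the log2 scale, with an interval from -0.87 to -0.45 (limma adjusted p = 0.00992); 1360 units had an unadjusted p under 0.05 (7.13%), 672 higher (3.52%) and 688 lower (3.61%). The call was lost with the 12 arrays fitted alone (limma adjusted p = 0.256) and without control day 70 replicate 1 (0.183) or control day 80 replicate 1 (0.29). Without control day 70 replicate 3, 50 units were called in controls, 37 higher and 13 lower, and Rab19 stayed among them (limma adjusted p = 0.0198). In Indy206 limma called 0 units (0%), with 1215 at an unadjusted p under 0.05 (6.37%), 677 higher (3.55%) and 538 lower (2.82%), and a smallest adjusted p of 0.48. Without Indy206 day 70 replicate 1 the count in Indy206 was 15.

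The genes of smallest p in Indy206 were Miox, Argl and Yp1, all higher at day 80. Miox, the gene of inositol oxygenase, stood at -0.53, -0.73 and -1.36 at day 70 and at 0.35, -0.11 and 0.04 at day 80 in Indy206. In controls it stood at 0.56, 0.28 and 0.51 and then at 0.36, 0.13 and 0.03, with overlap. Argl encodes argininosuccinate lyase, which splits argininosuccinate into arginine and fumarate. It went from -1.22, -1.34 and -1.82 to -0.43, -0.55 and -0.90 in Indy206, without overlap, and from -0.73, -0.41 and -0.67 to -1.36, -0.72 and -0.82 in controls, with overlap. The Indy206 differences were 0.97 ± 0.21 (SE) for Miox and 0.83 ± 0.19 (SE) for Argl (limma adjusted p = 0.48 for both). Miox passed the test without Indy206 day 70 replicate 1 (limma adjusted p = 0.047).

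The difference between the genotypes in this step was tested directly and called no unit. limma gave 0 of 19077 (0%), with 1384 at an unadjusted p under 0.05 (7.25%), of which 707 were above 0 (3.71%) and 677 below (3.55%), and a smallest adjusted p of 0.349. Across all units, the change in Indy206 and the change in controls had the same sign in 9616 (50.41%) and correlated at 0.13 (Pearson, over 19077 units that share arrays, as a description). As Indy206 change minus control change, Miox differed by 1.25 ± 0.30 (SE), Argl by 1.20 ± 0.27 (SE) and CG14624, known only by a number, by -0.66 ± 0.14 (SE). Gmap, which encodes a golgin of the Golgi apparatus, went from -0.02, 0.20 and 0.17 to -0.20, -0.17 and -0.15 in Indy206 and from -0.25, -0.16 and -0.02 to 0.18, 0.22 and 0.01 in controls. It separated the days in both genotypes, downward in Indy206 and upward in controls.

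Lsp2 and TpnC4 had wide differences between the genotypes that were not called either. Lsp2, which encodes a larval serum protein made by the fat body, stood at -2.26, -2.07 and -4.50 in Indy206 at day 70 and at -0.90, -1.98 and -1.69 at day 80. In controls it stood at -0.74, -0.59 and -1.48 and then at -3.39, -1.48 and -2.70. The change was 1.42 ± 0.83 (SE) in Indy206 and -1.59 ± 0.83 (SE) in controls (limma adjusted p of the difference = 0.56). TpnC4, a troponin C of muscle, stood at -0.18, -0.56 and -0.45 in controls at day 70 and at -1.58, -1.43 and -1.74 at day 80, without overlap. In Indy206 its arrays overlapped, at -1.60, -0.58 and -1.27 and then -0.44, -0.73 and -0.98, and the difference between the genotypes was 1.62 ± 0.47 (SE, limma adjusted p = 0.40).

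Transcripts of oxidative phosphorylation lay lower at day 80 in most members, chiefly on the control arrays, with no single gene called. Over both genotypes the 21 measured genes of complex I had a median difference of -0.095 and the 8 of complexes II and III one of -0.23. The 8 of complex IV had -0.17 and the 13 of ATP synthase -0.13, beside 0.0093 for all units. Of these 50 genes, 42 were below 0, 0 were called and 5 were lower at an unadjusted p under 0.05 (2.4% of all units). In controls 46 of the 50 were below 0 and 24 had every day 80 array below every day 70 array, an order that 6.27% of all units had, while 1 had the opposite order (5.18% of all units). In Indy206 23 of the 50 were below 0 and 0 had that order, which 4.97% of all units had. The medians over both genotypes and in controls kept their sign under every scaling, covariate and left-out array that was run, and without the 2 arrays of narrowest spread the control medians were -0.24, -0.42, -0.27 and -0.28 in the order of the lists.

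By complex, the array medians of controls separated the days in all 4 lists. Complex I, the entry point of electrons from NADH, had control medians of -0.10 to 0.04 at day 70 and -0.36 to -0.19 at day 80. ND-20, one of its subunits, stood at 0.26, 0.41 and 0.28 and then at -0.12, -0.02 and 0.01 in controls, and at -0.18, 0.42 and 0.04 and then 0.08, 0.09 and -0.24 in Indy206. The groups of ND-20 did not overlap in controls and did in Indy206, and its difference over both was -0.24 ± 0.090 (SE).

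Complex III, which feeds electrons to cytochrome c, was listed together with complex II. The control medians of this list were -0.15 to 0.03 at day 70 and -0.55 to -0.27 at day 80. UQCR-Q, of complex III, stood at -0.27, -0.34 and -0.53 and then at -0.83, -0.98 and -0.85 in controls, against -0.97, -0.21 and -0.78 and then -0.81, -0.54 and -0.97 in Indy206. The membrane anchor gene SdhC, of complex II, differed by -0.47 ± 0.14 (SE) in controls and by 0.015 ± 0.14 (SE) in Indy206.

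Complex IV reduces oxygen, and its control medians were -0.27 to -0.08 and then -0.58 to -0.33. Those of ATP synthase were -0.31 to -0.20 and then -0.61 to -0.36. ATPsynO, of its peripheral stalk, stood at 0.01, -0.20 and -0.09 in controls at day 70 and at -0.55, -0.61 and -0.71 at day 80. In Indy206 it stood at -0.29, -0.49 and -0.35 and then at -0.17, -0.19 and -0.41, so the 2 genotypes overlapped at neither age.

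The Indy206 arrays of these lists had lain low already at day 70 and overlapped between the days. In controls complexes II and III had averaged 0.60 ± 0.07 (SD, n = 3) at day 50, and then -0.05 ± 0.09 and -0.40 ± 0.14 at the last 2 ages. The Indy206 averages were 0.22 ± 0.04, -0.28 ± 0.22 and -0.26 ± 0.24 at the same ages. Complex IV gave 0.24, -0.15 and -0.47 in controls and -0.04, -0.42 and -0.44 in Indy206. In Indy206 the median difference was 9.6e-05 in complex I and 0.0067 in complexes II and III, against -0.11 in complex IV and 0.095 in ATP synthase, and each of these signs turned under another scaling or without some single array. As Indy206 change minus control change, 43 of the 50 genes were above 0, 5 at an unadjusted p under 0.05 on that side (against 3.71% of all units) and 0 called by limma.

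**Figure D3:**
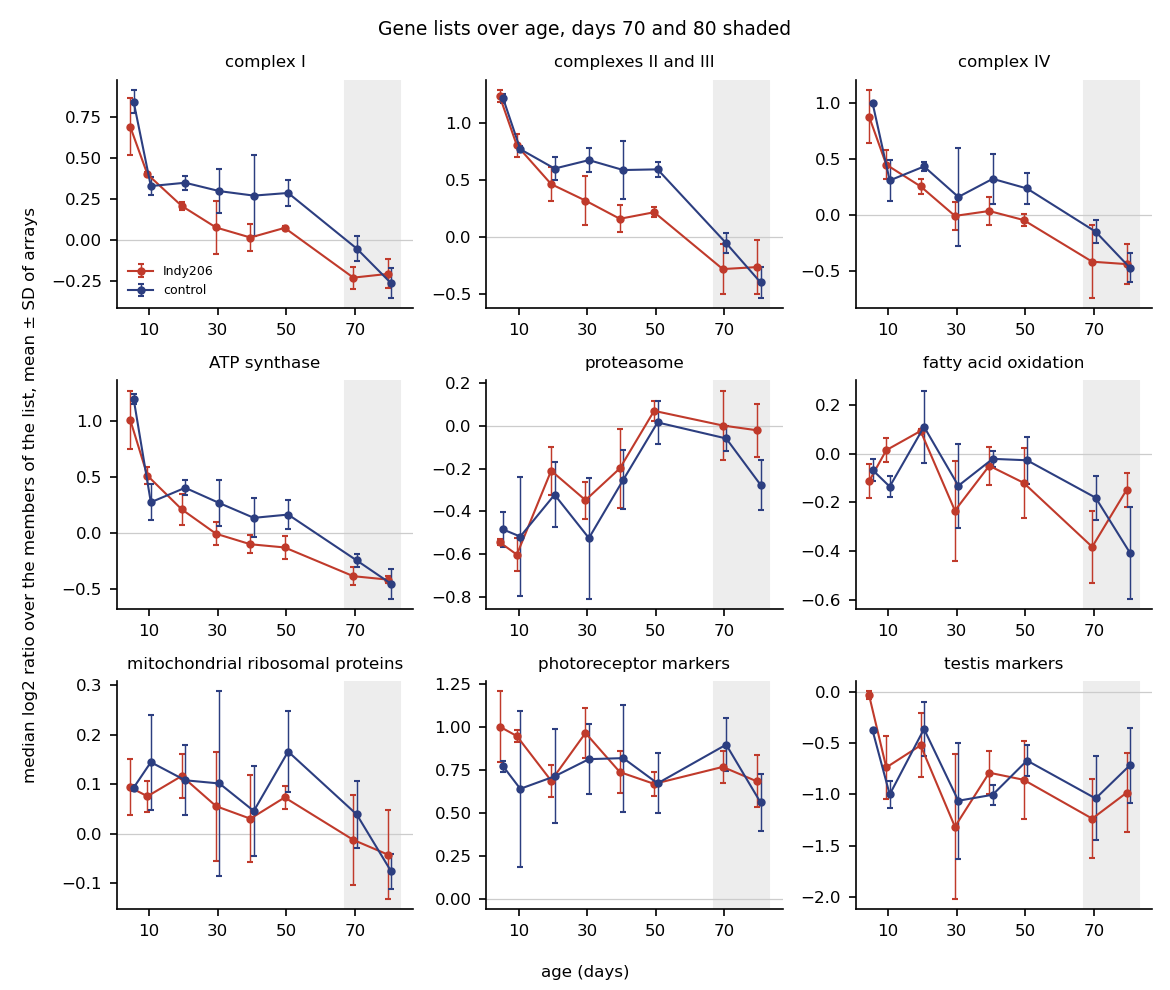
Median log2 ratio over the members of 9 gene lists (y axis) by age in days (x axis), as the mean of 2 or 3 arrays with bars of 1 SD, red for Indy206 and blue for controls, and days 70 and 80 shaded. The control line drops from day 70 to day 80 in the respiratory lists and the proteasome while the Indy206 line stays level, and the testis line moves by less than its bars.

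Enzymes that burn fatty acids in mitochondria and peroxisomes had medians of opposite sign in the genotypes. In Indy206 10 of 11 measured genes were above 0, with a median of 0.23, and 7 had every day 80 array above every day 70 array (5.71% of all units). In controls 10 of 11 were below 0, with a median of -0.13. The Indy206 array medians were -0.53 to -0.23 at day 70 and -0.21 to -0.07 at day 80, without overlap, and the control medians -0.28 to -0.11 and -0.62 to -0.26, with overlap. The carnitine palmitoyltransferase gene whd differed by 0.45 ± 0.20 (SE) in Indy206 and -0.11 ± 0.20 (SE) in controls, and Arc42, an acyl-CoA dehydrogenase, by 0.39 ± 0.17 (SE) and -0.044 ± 0.17 (SE). All 11 had a larger value in Indy206 than in controls, 3 at an unadjusted p under 0.05 (3.71% of all units), and none was called (smallest limma adjusted p = 0.437). Both list medians kept their sign in all settings run.

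Central carbon enzymes had medians above 0 in Indy206 and below 0 in controls, where the sign of the TCA cycle turned with array quality weights. TCA cycle genes had 7 of 9 above 0 and a median of 0.032, and glycolysis genes 7 of 9 and 0.041. Both medians turned negative with quantile normalization, at -0.019 and -0.021, and with a common spread of arrays. In Indy206 the medians were 0.13 for the TCA cycle and 0.10 for glycolysis, positive in all settings run, though the first was 0.0040 without Indy206 day 70 replicate 1. In controls they were -0.035 and -0.14, the second of which stayed negative in all settings run. No gene of either list was called.

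Proteasome subunits lay lower at day 80 in most members, again chiefly on the control arrays. Over both genotypes 20 of 25 were below 0, with a median of -0.099, and 0 were called. In controls 22 of 25 were below 0, 11 had no overlap downward (6.27% of all units), and the array medians went from -0.11 to 0.00 at day 70 to -0.40 to -0.17 at day 80. In Indy206 the median change was 0.023, a sign that turned without some single arrays. Prosalpha7, a subunit of the outer ring, stood at -0.05, -0.04 and -0.07 and then at -0.72, -0.37 and -0.42 in controls, without overlap, and at -0.16, 0.07 and -0.16 and then -0.19, 0.07 and -0.19 in Indy206. Over days 10 to 50, 19 of the 25 had risen (2.05% of all units had), with a median slope of 0.13 per 10 days.

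Chaperones had medians near that of all units. Inducible heat shock genes had 5 of 8 above 0 with a median of 0.029, and constitutive chaperones 11 of 17 with 0.030, a sign that turned with array quality weights and without control day 70 replicate 2. Hsp26, a small heat shock protein, differed by -0.25 ± 0.12 (SE). Its controls went from 0.01, 0.03 and -0.06 to -0.56, -0.29 and -0.43 without overlap, and its Indy206 arrays from -0.26, 0.30 and -0.28 to -0.19, 0.01 and -0.31 with overlap. Hsp26 had risen by 0.21 per 10 days over days 10 to 50. In controls 3 of the 8 inducible genes, Hsp22, l(2)efl and stv, separated the days upward (5.18% of all units). Hsp26 was the 1 that did so downward (6.27% of all units), and in Indy206 0 separated the days. Hsp22 went from 0.78, 0.53 and 0.47 to 1.24, 0.85 and 0.82 in controls, and l(2)efl from 0.86, 0.82 and 0.78 to 1.18, 1.21 and 1.13. None of the 8 inducible and 17 constitutive genes was called.

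Mitochondrial ribosomal proteins had 47 of 60 below 0 and a median of -0.077, which kept its sign in all settings run, with 7 lower at an unadjusted p under 0.05 (2.4% of all units) and 0 called. mRpL38, of the large subunit, stood at 0.27, 0.19 and 0.38 and then at 0.07, 0.06 and 0.17 in Indy206, and at 0.18, 0.34 and 0.17 and then -0.09, 0.11 and 0.00 in controls. The days did not overlap in either genotype, and the difference was -0.20 ± 0.065 (SE). Cytosolic ribosomal proteins had 15 of 29 above 0 and a median of 0.0072 that turned with quantile normalization. Their medians were 0.13 in Indy206, with 5 of 29 below 0, and -0.13 in controls, with 18 of 29 below 0, and both kept their sign in all settings run.

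Immune effectors, the antimicrobial peptides secreted on infection, varied widely between the Indy206 arrays and had a higher median at day 80 on the control arrays. The array medians of controls were 0.74 to 0.88 at day 70 and 1.05 to 1.17 at day 80, without overlap. Those of Indy206 were 0.27 to 1.42 and then 0.45 to 0.75. The control members had a median difference of 0.33, positive in all settings run, with 2 of 8 below 0, BomBc2 and BomBc3. In controls 1 of the 8 separated the days upward (5.18% of all units) and 1 downward (6.27%). At an unadjusted p under 0.05, 0 were higher in controls (3.52% of all units) and 1 was lower (3.61%). The downward one, BomBc3, went from 1.21, 1.53 and 0.93 to 0.76, 0.15 and 0.83 in controls. Over both genotypes the 8 measured genes had a median difference of 0.12, which was -0.031 without Indy206 day 70 replicate 1, and 0 were called. Def (defensin) stood at 1.16, 2.10 and 1.33 and then at 1.97, 2.02 and 1.39 in Indy206, and at 1.18, 1.15 and 1.79 and then 1.49, 2.00 and 2.11 in controls, with overlap in both. DptB (diptericin B) stood at 0.78, 0.48 and 0.84 and then at 1.74, 1.42 and 1.37 in controls without overlap, and at -0.33, 1.07 and 1.52 and then 0.61, 0.83 and 0.40 in Indy206 with overlap. The intervals were -0.25 to 1.00 for Def and -0.49 to 1.17 for DptB, so a further rise of the size seen over days 10 to 50, 0.38 and 0.43 per 10 days, lies inside both.

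Upstream of the effectors stand the recognition proteins and the Toll and Imd pathways. Peptidoglycan recognition genes had 4 of 9 above 0 and a median of -0.010 that turned with a common spread of arrays. Toll and Imd pathway genes had 14 of 21 below 0 and a median of -0.029, negative in all settings run. In controls 6 of these 21 separated the days downward (6.27% of all units), among them pirk, the serpin gene nec at -0.56 ± 0.21 (SE), which restrains the Toll pathway, and imd, the adaptor of its pathway, at -0.23 ± 0.11 (SE). The control median of -0.052 was 0.0043 with quantile normalization. Haemocyte markers had 6 of 8 below 0, with a median of -0.11, which was -0.060 with quantile normalization, -0.057 with a common spread and -0.021 without Indy206 day 70 replicate 1. Among them the phagocytosis receptor gene NimC4 stood at 2.13, 1.34 and 2.29 and then at 1.20, 1.05 and 1.57 in Indy206, and at 2.05, 1.16 and 0.88 and then 0.71, 0.67 and 1.39 in controls. Both genotypes overlapped, and the difference was -0.54 ± 0.26 (SE).

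Detoxification families had small positive medians over both genotypes, with the larger values in Indy206. Of all units, 53.83% were above 0 over both genotypes, 54.25% in Indy206 and 53.21% in controls. UDP-glycosyltransferases had 24 of 32 above 0 and a median of 0.071, which was 0.15 in Indy206 and 0.0080 in controls, where its sign turned with quantile normalization. They were led by Ugt37A3 at 0.39 ± 0.16 (SE). Cytochrome P450 genes had 47 of 77 above 0 and a median of 0.035, and in this family the lowest p belonged to Cyp310a1 at 0.36 ± 0.12 (SE). Their median was 0.12 in Indy206, with 18 of 77 below 0, and -0.059 in controls, with 48 below 0 and 13 separating the days downward (6.27% of all units), and each sign held in all settings run. Glutathione S-transferases had 17 of 27 above 0 and a median of 0.032, which was -0.027 without the 2 arrays of narrowest spread, and their control median was -0.015. GstD3 differed by 0.60 ± 0.23 (SE), and it stood at -0.94, 0.98 and 0.89 and then at 0.92, 1.54 and 1.49 in Indy206. Its day 70 replicate 1 lay far below the other arrays, whose ranges overlapped, and no gene of these families was called.

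Signals and senses of the head were measured through neuropeptides, odorant carriers, receptors and the eye. Neuropeptide and peptide hormone genes had 14 of 18 below 0, a median of -0.077 that stayed negative in all settings run, and 3 members lower at an unadjusted p under 0.05 (2.4% of all units), Dh31, ETH at -0.18 ± 0.082 (SE) and sNPF at -0.18 ± 0.088 (SE). Odorant-binding proteins, which carry odorants in the fluid around sensory neurons, had 20 of 31 below 0 and a median of -0.048. Obp99d stood at 1.15, 1.18 and 0.92 and then at 0.27, 0.59 and 0.40 in controls, without overlap. Its Indy206 arrays, 0.88, 0.11 and 0.84 and then 0.12, 0.24 and -0.61, overlapped, and the difference was -0.68 ± 0.23 (SE). Odorant, gustatory and ionotropic receptors had 59 of 105 above 0 and a median of 0.010 that turned with the marker covariate. The genotypes had medians of opposite sign, -0.065 in Indy206 with 69 of 105 below 0 and 0.060 in controls with 33 below 0, each held in all settings run. As Indy206 change minus control change, 13 were below 0 at an unadjusted p under 0.05 (3.55% of all units) and 0 were called by limma. The pattern was not particular to receptors. The 94 measured cuticle protein genes had medians of -0.052 in Indy206 and 0.050 in controls, each held in all settings run. Of these 94, 8 were below 0 at an unadjusted p under 0.05 in the same comparison and 0 were called by limma.

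The median of the photoreceptor markers lay above the reference on all 12 arrays. These medians in controls were 0.80 to 1.07 at day 70 and 0.38 to 0.71 at day 80, and in Indy206 0.66 to 0.84 and 0.56 to 0.85. Over both genotypes 8 of 9 were below 0, with a median of -0.11. Arr1, an arrestin that shuts off rhodopsin, differed by -0.34 ± 0.14 (SE), and its control arrays overlapped, at 0.77, 0.62 and 0.38 and then -0.33, 0.14 and 0.38.

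Muscle markers had 8 of 14 above 0 and a median of 0.090, which was 0.066 in Indy206 and -0.020 in controls, and neuron markers 6 of 10 and 0.0095, a sign that turned without some single arrays. The paramyosin gene Prm differed by 0.34 ± 0.15 (SE) and the neuronal gene elav by 0.28 ± 0.13 (SE). SERCA, which encodes the pump that returns calcium to the stores of muscle fibres, stood at -1.19, -1.73 and -1.30 and then at -0.37, -0.93 and -1.13 in controls, without overlap, and at -0.88, -1.13 and -1.01 and then -0.92, -0.87 and -0.59 in Indy206, with overlap. Its difference was 0.41 ± 0.35 (SE).

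Of the abdominal lists, midgut enzymes had 13 of 17 above 0 and a median of 0.11, which was -0.041 with quantile normalization. Accessory gland genes had 8 of 12 above 0 and a median of 0.047. It was -0.29 with quantile normalization and -0.16 with the marker covariate, which is made in part from these genes. Their array medians overlapped between the days in both genotypes, at -3.91 to -3.12 and then -4.07 to -2.93 in Indy206 and at -3.49 to -3.21 and then -3.50 to -2.51 in controls. Other lists had small medians as well. Circadian clock genes had 7 of 11 above 0 and a median of 0.089 that stayed positive in all settings run. Their median was 0.19 in Indy206, with 1 of 11 below 0. In controls it was -0.024, with 6 below 0, a sign that turned with array quality weights. The clock kinase gene dco differed by 0.24 ± 0.11 (SE), and the clock gene tim stood at 0.05, -0.01 and -0.07 and then at -0.62, -0.65 and -0.32 in controls, without overlap, against -0.74, -0.84 and -0.58 and then -0.59, -0.60 and -0.85 in Indy206. Genes of the juvenile hormone and ecdysone response had 13 of 16 above 0 with a median of 0.061, and aminoacyl-tRNA synthetases 18 of 26 with 0.068, both positive in all settings run. Hr38, a nuclear receptor gene, stood at -0.19, 0.00 and 0.07 and then at 0.39, 0.10 and 0.20 in controls, without overlap, and its difference was 0.23 ± 0.068 (SE). Autophagy genes had 13 of 19 below 0 with a median of -0.058, which was 0.012 without control day 80 replicate 1. Atg2, which passes lipids to the growing autophagosome, stood at -0.31, -0.24 and -0.22 and then at -0.35, -0.34 and -0.39 in Indy206, and at -0.02, -0.07 and -0.03 and then -0.45, -0.11 and -0.30 in controls. Its days did not overlap in either genotype, and its difference was -0.17 ± 0.089 (SE).

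Over all 43 lists of 893 measured genes, 25 medians were above 0 and 18 below, they ran from -0.23 to 0.19, and no member was called. Some lists were measured only in part. The arrays gave 29 of 82 cytosolic ribosomal protein genes, 8 of 26 immune effectors, 21 of 34 complex I genes and 105 of 186 receptors. They gave 13 of 13 ATP synthase genes and 25 of 32 proteasome genes.

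Units that had risen in earlier adult life stood mostly lower at day 80 than at day 70, and those that had fallen were split. Over days 10 to 50, measured on 26 other arrays, 623 units had a slope (3.27%), 392 rising (2.05%) and 231 falling (1.21%). The 392 rising units had a median slope of 0.13 per 10 days and a median difference of -0.057 from day 70 to day 80, with 121 of them (30.87%) above 0, against 53.83% of all units. Their median was 0.0017 in Indy206 and -0.12 in controls. As medians of each array, the rising units stood at 0.302 to 0.347 at day 70 and 0.283 to 0.373 at day 80 in Indy206. In controls these were 0.250 to 0.315 and then 0.153 to 0.256, so the days overlapped in both genotypes. The 231 falling units had a median slope of -0.12 and a median late difference of 0.019, with 128 (55.41%) above 0. That median was -0.023 with quantile normalization. The array medians of the falling units overlapped in Indy206, at -0.244 to -0.141 and then -0.164 to -0.059. In controls they did not, at -0.120 to -0.097 and then -0.152 to -0.148. At an unadjusted p under 0.05, 5 of the rising units were higher again at day 80 (3.05% of all units were higher) and 30 were lower (2.4%).

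The precision decides how much this shows for a single unit. For 154 of the 392 rising units the 95% interval of the late difference excluded their own earlier slope per 10 days, and for 238 it included it. For 45 of the 231 falling units it excluded the slope. This comparison takes the slope as a fixed number without its own error. The units were also selected for a called slope, which favours exclusion, so these counts are a description. Across the 623 units slope and late difference correlated at -0.16 and across all 19077 at -0.10 (Pearson, as a description over units that share arrays). From day 50 to day 70 the rising units had a median difference of 0.071 over 20 days, and the falling units one of -0.13.

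**Figure D4:**
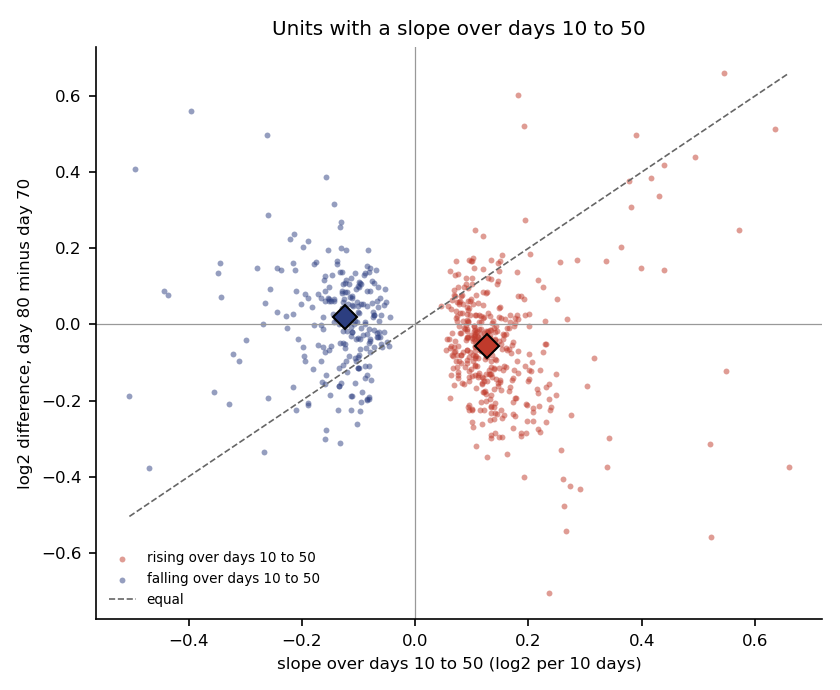
Slope over days 10 to 50 in log2 units per 10 days (x axis) against the log2 difference of day 80 minus day 70 (y axis) for the 623 units with a called slope, red for rising and blue for falling, with diamonds at the medians of each set and a dashed line where both values are equal. The red diamond lies at 0.13 and -0.057 and the blue diamond at -0.12 and 0.019, both off the dashed line.

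A direct test of the late difference against the slope called 1 unit, Rab19 (0.00524%), at -0.45 below its slope, with 1307 units at an unadjusted p under 0.05 (6.85%), 695 above the slope (3.64%) and 612 below it (3.21%). The limma adjusted p of Rab19 was 0.0319. In controls Rab19 averaged -0.46 at day 10, -0.07 at day 50 and 0.30 at day 70 before it stood at -0.36 at day 80. The count was 0 without any 1 of 9 of the 12 arrays.

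Among the 10 steepest risers of days 10 to 50, 5 encode antimicrobial peptides, of which only AttD had a late difference below 0. The serine protease homologue SPH93, with a slope of 0.66 per 10 days, stood at 1.83, 1.44 and 1.51 and then at 1.36, 1.10 and 1.78 in Indy206, and at 1.55, 1.63 and 1.75 and then 1.37, 1.04 and 0.81 in controls. The control groups did not overlap, and the late difference was -0.38 ± 0.41 (SE). Its interval from -1.22 to 0.47 leaves out the slope taken as a fixed number, and the direct test did not call SPH93. The peptide genes Mtk and AttB had late differences of 0.44 ± 0.46 (SE) and 0.42 ± 0.47 (SE), close to their slopes of 0.49 and 0.44, and AttD one of -0.30 ± 0.37 (SE). RPA1 had a slope of 0.30 and a late difference of -0.16 ± 0.11 (SE), from 0.53, 0.92 and 0.81 to 0.10, 0.28 and 0.70 in controls, with overlap.

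The 10 steepest fallers include genes of muscle, sperm, seminal fluid, haemocytes and metabolism. SERCA, with a slope of -0.50, had an interval from -0.31 to 1.12 in this step. This leaves out the slope taken as a fixed number, and the direct test did not call SERCA. TpnC4, with a slope of -0.47, differed by -0.38 ± 0.23 (SE) as the mean of its opposite values in the genotypes. The neuropeptide-like gene Nplp3, with a slope of -0.44, differed by 0.087 ± 0.22 (SE), from -1.92, -1.04 and -2.04 to -1.34, -0.86 and -1.16 in Indy206 and from -0.43, -1.24 and -0.94 to -1.81, -0.73 and -1.20 in controls. The prophenoloxidase genes PPO1 and PPO2, which make the enzymes of melanization, differed by -0.21 ± 0.36 (SE) and -0.19 ± 0.24 (SE). The sperm gene Mst98Cb, which marks the testis, stood between -5.47 and -3.16 on the 12 arrays and differed by 0.56 ± 0.45 (SE). The sorbitol dehydrogenase gene Sodh1 differed by 1.32 ± 0.40 (SE) in Indy206, without overlap, and by -0.33 ± 0.40 (SE) in controls.

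**Figure D5:**
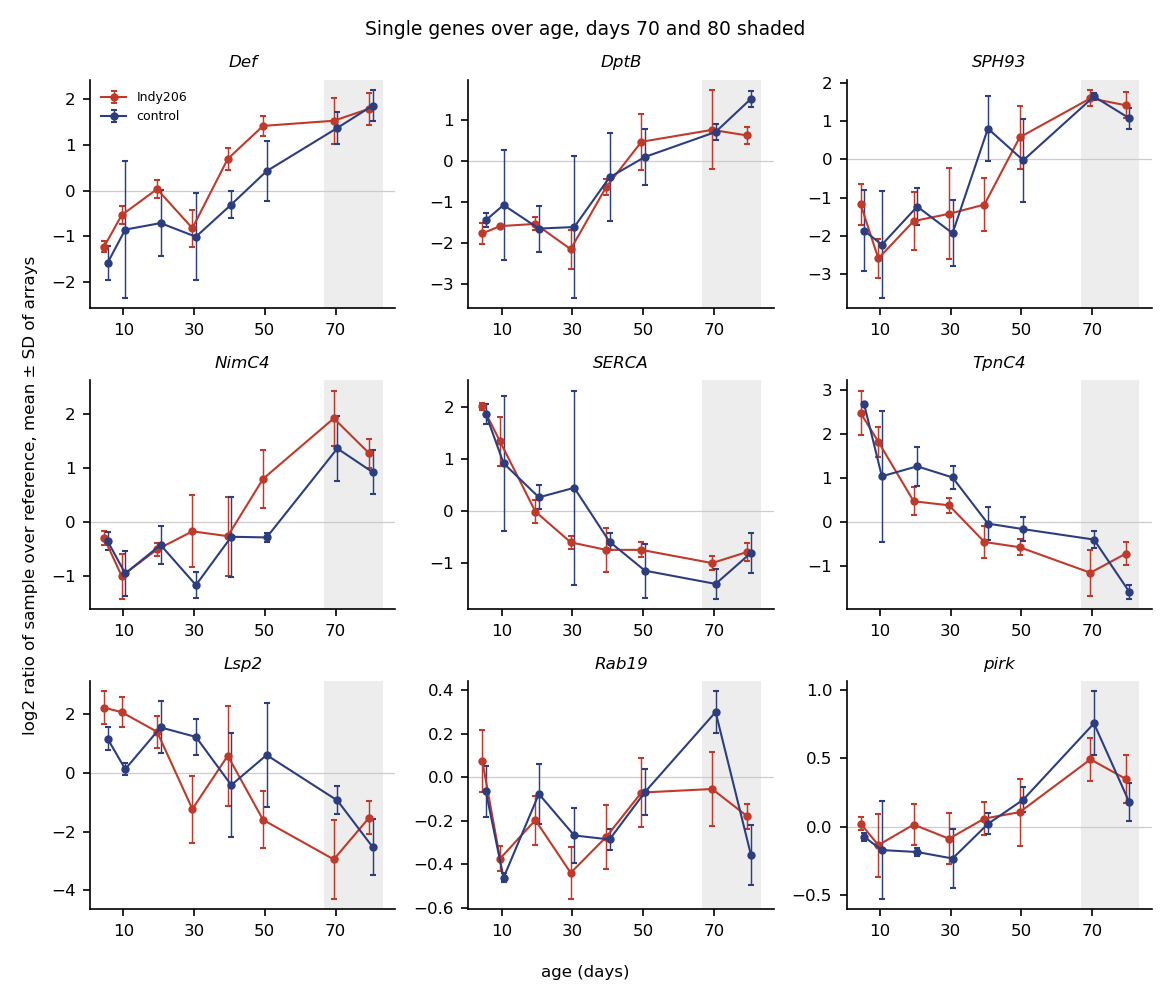
Log2 ratio of sample over reference (y axis) by age in days (x axis) for 9 genes, as the mean of 2 or 3 arrays with bars of 1 SD, red for Indy206 and blue for controls, and days 70 and 80 shaded. SPH93, NimC4 and pirk climb up to day 70 and stand lower at day 80, Rab19 drops in controls from 0.30 to -0.36, and Lsp2 and TpnC4 move in opposite directions in the genotypes.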

How the data were processed

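Head and thorax RNA of 42 samples was measured on two-colour arrays. The deposited values are log2 ratios that the authors made with limma, per the submitters' processing notes; version, background correction and normalization: not given in the sources used here. They were not normalized again. Spots of 1 gene (10828, of which 10824 matched gene names of the assembly Release 6 plus ISO1 MT) were averaged, and the 227 with several genes and 8945 with none stayed unnamed. limma 3.58.1 in R 4.3.3 was fitted to all 42 arrays with 16 group means, so that all ages share 1 estimate of spread. The change over both genotypes is the mean of the genotypes' changes, which equals the value with genotype as a block. P-values were adjusted by Benjamini-Hochberg over all units and called under 0.05. The model was tested on simulated data. Alternatives were other scalings, array weights, variance models, units, a marker covariate, the replicate block, the 12 arrays alone and each array left out. Named genes over both genotypes, where none was called, are up to 6 of smallest p in each direction. They were picked among genes with the same sign of change in each genotype. Others are 3 in each genotype and for their difference, and up to 4 of smallest p in a list. Added later were the 10 steepest slopes each way and members of short lists. Correlations and medians were computed in Python 3.11.15. Members, lists and added tests were chosen with earlier results of these data known.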

Additional observations from a re-analysis of the deposited data

Results flagged for a closer look

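Gmap, the golgin gene, moved in opposite directions in the genotypes, with no overlap between the days in either. It was lower at day 80 in Indy206, by -0.29, and higher in controls, by 0.28, and the Indy206 change minus the control change was -0.57 ± 0.13 (SE). The test of this difference did not call it (limma adjusted p = 0.349), and 145 of 19077 units showed the same kind of separation. Groups of 3 arrays are too small for the test of single outlying arrays.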

How the results depend on the processing

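The result of no call over both genotypes held in the alternatives of scaling, averaging of spots, array weights, variance model, units tested and arrays fitted. It became 1 with the abdominal marker covariate, and ran from 0 to 3 with each array left out in turn. The same range was 0 to 15 in Indy206, 0 to 50 in controls, 0 to 2 for the difference between the genotypes and 0 to 4 for the late difference against the slope. In controls the count was 0 with the 12 arrays fitted alone and 10 without the 2 arrays of narrowest spread, an alternative chosen after seeing the data. For the difference between the genotypes it was 1 with the 12 arrays (Cyp4d21, at 1.55, limma adjusted p = 0.0371) and 2 without the 2 arrays. For the late difference against the slope, a test added after seeing the data, it was 4 with array quality weights, 0 with robust variance and 0 without the 2 arrays. The slope count was 1403 over days 5 to 50 and 389 on the arrays of days 10 to 50 alone. Counts of earlier steps, also added later, moved with quantile normalization to 1094 (day 5 to 10), 119 (day 10 to 20), 466 (day 20 to 30), 117 (day 40 to 50) and 114 (day 50 to 70). The median of the falling units was -0.023 with quantile normalization, and with each array left out it ran from -0.0043 to 0.028, while that of the rising units ran from -0.081 to -0.047. The cause of these shifts was not tested, beyond the fewer samples of the smaller fits.

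Replicate numbers are shared by the groups. Of 18 pairs of arrays with the same number, 7 deviated together at a correlation above 0.1 (from -0.52 to 0.53). Pairs with unlike numbers ran from -0.65 to 0.57. The deviations are from means of 3 arrays and depend on each other, so this check cannot decide whether the numbers pair the samples. With the replicate block the count over both genotypes stayed at 0, in all arrays and in the 12. With the block in the 12 arrays it was 0 in controls and 1 for the difference between the genotypes, and with the block in all arrays it was 0 for the late difference against the slope.

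Of 2288 recomputed values of 104 single gene results, 2277 kept their direction and side of the threshold. Only Rab19 in controls was called in this step in the main fit, so nearly all of these results began on the uncalled side. Staying there says little about their stability. Rab19 in controls was called in 18 of 22 alternatives (limma adjusted p 0.00161 to 0.444) and Rab19 over both genotypes in 2 of 22 (0.0258 to 0.887). Yp3 turned sign, to 0.016 with quantile normalization, 0.014 with a common spread, and 0.062 or 0.0062 when replicate 2 of control day 70 or replicate 3 of control day 80 was left out, a range of -0.063 to 0.062 over the arrays. Signal over background was not analysed here, so what it limits is not known.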
